A study of Mus musculus with 11 samples.

Results

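Only 12 of the 14272 genes in the expression files of a mouse melanoma progression model were at least 2 log2 units, or 4-fold, higher in melan-a melanocytes than in every library of the 3 lines derived from them. A gene met this rule when the lower of the 2 melan-a libraries was above 0 log2 CPM (read counts scaled to the depth of the library) and lay at least 2 log2 units above the highest of the 9 derived libraries. The genes are Sorbs2, Coro2a, Tbc1d9, Eya1, Rtn4rl2, Smtnl2, Adamts9, Col9a1, Itga8, Prob1, Cacnb4 and Snai2, in the order of their gap to the highest derived library. The same values that chose these genes set melan-a apart from the derived lines, so that difference is given below as a description, without a test. Tests are kept for differences among the derived lines, which the rule did not compare, and there for the genes that did not need the higher line to be listed.

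Melan-a is a spontaneously immortalized line of nonmalignant mouse melanocytes, and its medium held the phorbol ester PMA at 200 nM. The 4C, 4C11- and 4C11+ lines were derived from melan-a by repeated rounds in which the cells were kept from attaching, and were grown in the same serum-containing medium without PMA. The labels describe 4C as pre-malignant and not tumorigenic, 4C11- as a non-metastatic melanoma and 4C11+ as a metastatic melanoma. Total RNA of 2 melan-a cultures (replicates 2 and 3; replicate 1 was not analysed here) and of 3 cultures of each derived line was sequenced, and none of the lines carries a named transgene or engineered allele. PMA in the medium and the melan-a line cannot be told apart in this design, and each line stands for 1 derivation. P-values rest on the spread between cultures within lines, pooled for each gene over all lines and moderated by that of other genes. They do not measure a spread between derivations. In such bulk RNA fewer expressing cells and less RNA per cell cannot be told apart.

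PMA mimics diacylglycerol and activates the conventional and newer isoforms of protein kinase C, and melanocytes in culture are commonly grown with it. Melanocytes arise from the neural crest, a migratory embryonic cell population whose formation and delamination involve SNAI2. Extracellular matrix, integrins and the actin cytoskeleton together anchor such cells to their substrate, and the derived lines were selected by the loss of that anchorage. Among the 12 genes, Eya1 and Snai2 encode regulators of transcription, Itga8, Col9a1 and Adamts9 encode an integrin chain, a collagen chain and a matrix protease, and Sorbs2, Coro2a and Smtnl2 encode proteins of the actin cytoskeleton. Rtn4rl2 and Cacnb4 encode a cell surface receptor and a calcium channel subunit, and Tbc1d9 encodes a protein with a TBC domain, the domain of GTPase-activating proteins for Rab GTPases. Prob1 is named here without a role.

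The 12 genes were all protein coding and lay on 8 chromosomes. No pair of them was adjacent in the order of the genes measured. In the GRCm38 build with GENCODE M21 gene models, in which values refer to all exons of a gene, Sorbs2 (ENSMUSG00000031626) spans chr8:45507788-45827906 on the plus strand and Tbc1d9 (ENSMUSG00000031709) chr8:83165352-83272934 on the plus strand. Eya1 (ENSMUSG00000025932) spans chr1:14168954-14310235 on the minus strand and Col9a1 (ENSMUSG00000026147) chr1:24177610-24252684 on the plus strand. Rtn4rl2 (ENSMUSG00000050896, chr2:84871924-84886710), Itga8 (ENSMUSG00000026768, chr2:12106632-12301922) and Cacnb4 (ENSMUSG00000017412, chr2:52428320-52676831) are all on the minus strand of chromosome 2. Coro2a (ENSMUSG00000028337, chr4:46536937-46602202), Adamts9 (ENSMUSG00000030022, chr6:92772699-92943492) and Smtnl2 (ENSMUSG00000045667, chr11:72389164-72411713) are on minus strands, and Snai2 (ENSMUSG00000022676) spans chr16:14705852-14709385 on the plus strand. The genes were long, with a median span of 91329 bases against 19316.5 bases over all genes measured, and a median exon length of 6173 against 4067 bases. Annotated transcripts of other genes lay within 7 of the 12, and in 6 of these they touched exons of the gene. All of the exon-touching ones were on the opposite strand, and no overlapping gene had a value of its own. The libraries were stranded, but the strand setting of the counting was not given in the sources used here, so antisense reads may be included.

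Promoter sequences (250 bases before to 50 after the start, RefSeq, GRCm38.p6) were at hand for 9 of the 12 genes, 15 promoters in all, and 4 are printed here because they show how unlike these promoters were. CG dinucleotides, the sites of DNA methylation, are in capitals. The printed Coro2a promoter (chr4:46601880-46602179, minus strand) held 43, and the other Coro2a promoter (chr4:46566391-46566690, minus strand), not printed, held 3. The Itga8 promoter (chr2:12301895-12302194, minus strand) held 23, the Tbc1d9 promoter (chr8:83165102-83165401, plus strand) 5 and the first Col9a1 promoter (chr1:24177360-24177659, plus strand) 0.
Coro2a: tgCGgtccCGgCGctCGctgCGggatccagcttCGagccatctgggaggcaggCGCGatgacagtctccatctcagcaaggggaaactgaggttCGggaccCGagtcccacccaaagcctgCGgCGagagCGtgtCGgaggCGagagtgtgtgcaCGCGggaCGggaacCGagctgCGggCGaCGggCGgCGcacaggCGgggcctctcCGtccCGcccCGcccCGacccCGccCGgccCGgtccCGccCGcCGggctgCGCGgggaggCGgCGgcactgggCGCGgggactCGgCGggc
Itga8: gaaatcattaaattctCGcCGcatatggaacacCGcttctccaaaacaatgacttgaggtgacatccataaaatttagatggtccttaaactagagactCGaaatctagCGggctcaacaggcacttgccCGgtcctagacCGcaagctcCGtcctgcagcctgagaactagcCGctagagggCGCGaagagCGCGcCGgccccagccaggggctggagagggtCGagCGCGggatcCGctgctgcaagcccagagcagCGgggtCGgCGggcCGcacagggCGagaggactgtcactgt
Tbc1d9: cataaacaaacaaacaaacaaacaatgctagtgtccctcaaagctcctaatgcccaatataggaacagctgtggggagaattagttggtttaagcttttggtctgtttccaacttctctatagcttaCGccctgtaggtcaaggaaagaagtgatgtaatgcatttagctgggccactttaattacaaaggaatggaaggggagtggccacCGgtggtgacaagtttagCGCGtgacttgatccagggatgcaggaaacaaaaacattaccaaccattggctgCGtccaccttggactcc
Col9a1: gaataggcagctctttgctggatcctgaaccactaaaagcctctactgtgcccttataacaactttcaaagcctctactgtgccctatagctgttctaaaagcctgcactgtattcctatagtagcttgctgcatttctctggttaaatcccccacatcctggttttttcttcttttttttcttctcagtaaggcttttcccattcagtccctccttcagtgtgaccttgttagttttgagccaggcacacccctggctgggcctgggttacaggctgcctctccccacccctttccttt
Of the 15 promoters, 7 held 20 or more CG, against 26.5% of all 32851 promoters. The other 8 held 10 or fewer, where 56.5% of all promoters held fewer than 10 and their median was 7. The 15 promoters come from 9 genes, and nothing is read from these counts. The AP-1 element TGANTCA, bound by the FOS and JUN factors that phorbol esters activate, was in 0 of the 15, against 7.81% of all promoters. The cAMP response element TGACGTCA was also in 0, against 1.79%. The M-box core CATGTG, the letters bound by MITF, was searched on both strands as CATGTG and CACATG and occurred in 1 promoter, of Sorbs2 (chr8:45627501-45627800, plus strand), against 14.2% of all promoters. Each of these is a match of letters in a short window and says nothing of binding elsewhere.

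**Figure D1:**
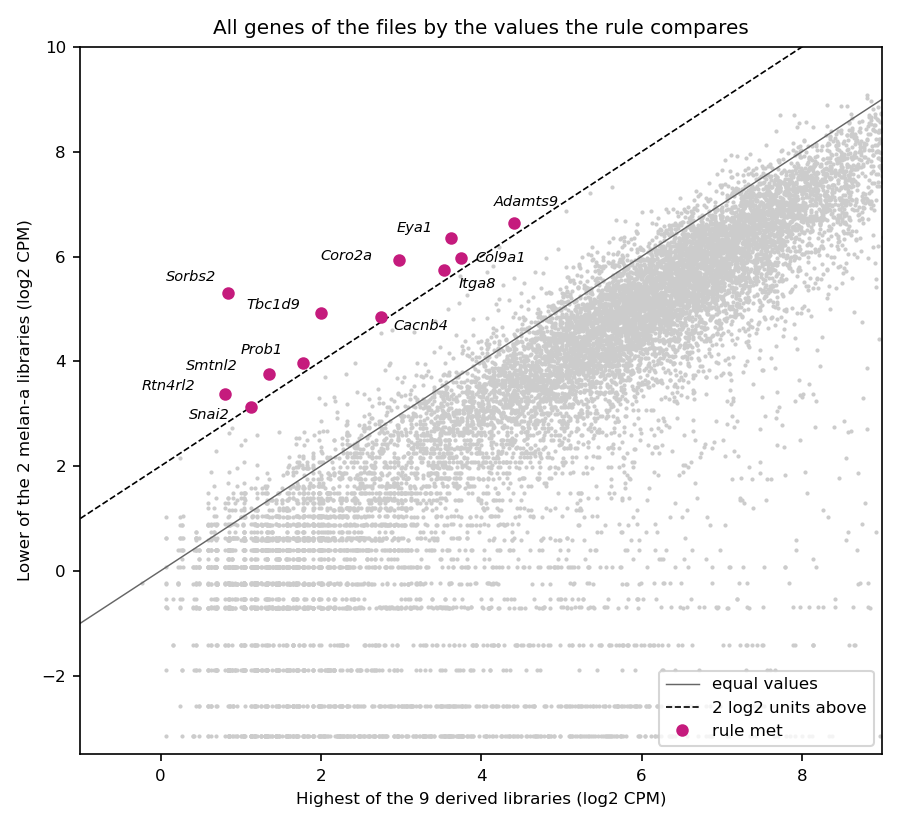
Each point is 1 gene, with the highest of the 9 derived libraries on the x axis and the lower of the 2 melan-a libraries on the y axis, both in log2 CPM as deposited; the solid line marks equal values and the dashed line 2 log2 units above. The 12 named genes lie on or above the dashed line with a lower melan-a value of 3.13 to 6.65, and the plot leaves out genes beyond its axes.

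The low values of each library lie 1 read apart, and their spacing would put 3.50 to 7.42 M reads assigned to genes in a library. All 11 libraries share 1 set of values, as after quantile normalization, which may distort these depths, so they are only a rough guide. A value at 3 reads or fewer is treated here as not distinguishable from absence, and a fold against a line with no library above 3 reads is given as a lower bound set at 3 reads in each of its libraries. The 8 melanocyte markers summed to 1866 CPM in melan-a replicate 2 and 9033 in replicate 3, to 10603 to 12890 CPM in 4C11+, and to at most 11.6 CPM in 4C and 4C11-. Against the label of melanocyte, Tyr was at -0.25 and 1.29 log2 CPM in melan-a. The 4 of 8 fibroblast markers that were measured summed to 1968 to 2630 CPM in 4C and 4C11-, to 206 and 19.8 CPM in melan-a replicates 2 and 3, and to at most 45.0 CPM in 4C11+. Pdgfrb made up most of that gap within melan-a, at 6.90 log2 CPM in replicate 2 and 0.89 in replicate 3. The macrophage and leukocyte markers, 3 of 8 measured, summed to 96.8 and 12.7 CPM in melan-a and to 7.64 to 44.7 CPM elsewhere; the endothelial markers, 2 of 7 measured, summed to 95.8 to 178 CPM in 4C11- and at most 30.2 CPM elsewhere. The keratinocyte markers, 1 of 8 measured, stayed at or under 2.80 CPM. The part of these marker differences in the results was not tested. The 12 genes differed less between the melan-a libraries than most genes did, by a median of 0.32 log2 units against 0.61 over all genes, although the rule itself selects for 2 high melan-a values.

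Relative to one another, the gap between melan-a and the highest derived library ran from 2.00 log2 units in Snai2 to 4.46 in Sorbs2, with a median of 2.32. Corrected for exon length, the melan-a level of the 12 genes had a median of 2.69 log2 CPM per kb, close to the 2.45 of all genes. Col9a1 at 3.80, Itga8 at 3.73, Eya1 at 3.72 and Coro2a at 3.71 log2 CPM per kb were the highest in melan-a, and Sorbs2 at 0.54 the lowest. In the derived lines the median per-length level was -4.02 in 4C, -2.60 in 4C11- and -0.83 in 4C11+, against 2.43 to 2.44 over all genes in each line. The word lost applies to these genes only in part. Of their 108 derived library values, 40 were at 3 reads or fewer, and 22 of those were at 0. A line without any library above 3 reads was found for 6 genes in 4C, 3 in 4C11- and 1 in 4C11+. The authors required a level of 1 CPM or more in 4 or more libraries, and every gene in the files had a derived library above 3 reads, so a gene silent in all derived lines would not be listed.

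**Figure D2:**
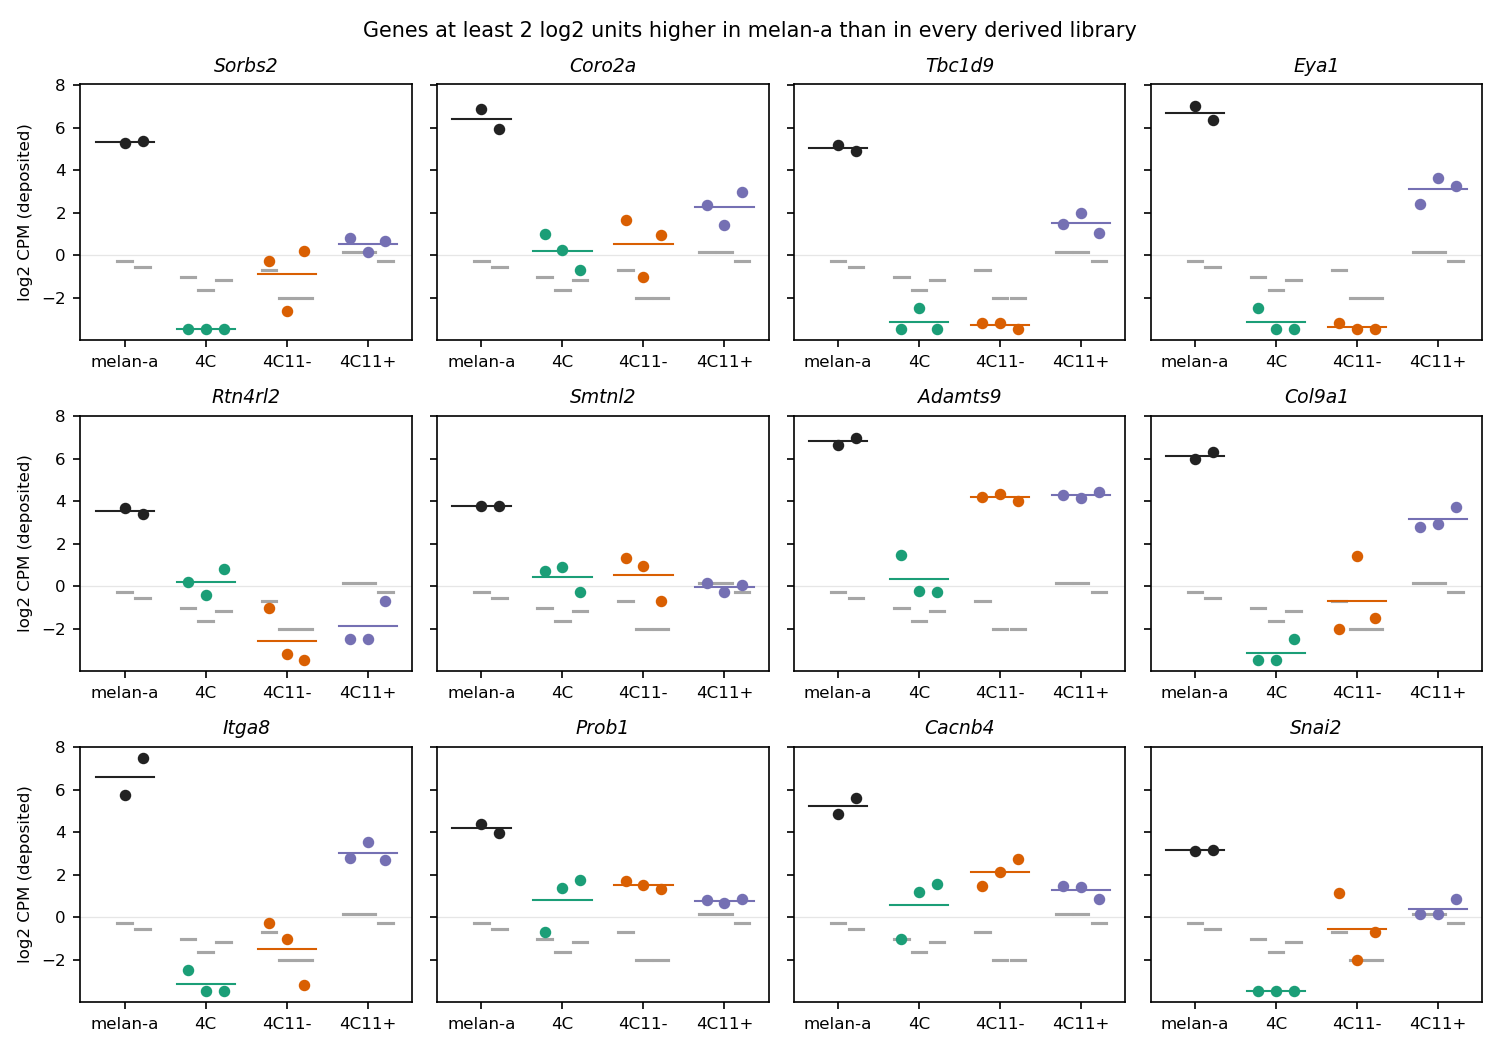
Each panel shows 1 gene, with the deposited log2 CPM of each library as a point, the line mean as a horizontal bar and, in grey, the value that 3 reads take in that library. Melan-a points lie above all derived points in the 12 panels, and the derived lines differ between panels, from no 4C library above 3 reads in Sorbs2 to Adamts9 values of 4.00 to 4.41 in 4C11- and 4C11+.

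Eya1, a transcriptional coactivator and protein phosphatase, reached 7.03 and 6.34 log2 CPM in melan-a, -2.44, -3.44 and -3.44 in 4C, -3.15, -3.44 and -3.44 in 4C11-, and 2.42, 3.62 and 3.27 in 4C11+. The 4C and 4C11- libraries held 0 or 1 read each, while the 4C11+ libraries held 21 to 54 and overlapped neither of them. Eya1 was therefore at least 247-fold lower in 4C and at least 307-fold lower in 4C11- than in melan-a, and 12.0-fold lower in 4C11+. Snai2, the zinc finger repressor also known as Slug, was lower in melan-a itself, at 3.13 and 3.18 log2 CPM. It was at -3.44 in all 3 libraries of 4C, at 1.13, -2.01 and -0.70 in 4C11-, and at 0.15, 0.15 and 0.88 in 4C11+. No 4C library held a read of Snai2, and the other 6 derived libraries held 3 to 11, with 4C11- and 4C11+ overlapping. Snai2 was at least 21.3-fold lower in 4C than in melan-a, 12.8-fold lower in 4C11- and 6.77-fold lower in 4C11+, where 2 of the 3 libraries were at 3 reads.

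Itga8, the integrin alpha 8 chain that pairs with the beta 1 chain, was at 5.75 and 7.48 log2 CPM in melan-a, at -2.44, -3.44 and -3.44 in 4C, at -0.24, -1.01 and -3.15 in 4C11-, and at 2.78, 3.54 and 2.71 in 4C11+. It had the largest difference between the melan-a libraries among the 12 genes, 1.73 log2 units, and its 4C11+ libraries lay above all of those of 4C and 4C11-. Col9a1, the alpha 1 chain of the fibril-associated collagen IX, was at 5.98 and 6.31 in melan-a, -3.44, -3.44 and -2.44 in 4C, -2.01, 1.44 and -1.50 in 4C11-, and 2.78, 2.91 and 3.75 in 4C11+. One 4C11- culture, replicate 2, stood above the other 2 with 20 reads against 1 and 4. Adamts9, a secreted metalloprotease that cleaves the proteoglycan versican, was at 6.65 and 6.96 log2 CPM in melan-a. It was at 1.47, -0.21 and -0.25 in 4C, at 4.21, 4.33 and 4.00 in 4C11-, and at 4.31, 4.13 and 4.41 in 4C11+. The 2 melanoma lines held 73 to 145 reads per library and overlapped, far above the 5 to 17 of 4C. The mean of Adamts9 was 88.6-fold below melan-a in 4C, 6.17-fold in 4C11- and 5.74-fold in 4C11+.

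Sorbs2, an adaptor of actin filaments and cell junctions, was at 5.30 and 5.39 log2 CPM in melan-a, -3.44 in each 4C library, -0.24, -2.58 and 0.22 in 4C11-, and 0.84, 0.15 and 0.69 in 4C11+. No derived library held more than 9 reads and 4C held 0, so the gene was near the limit of detection in all 3 lines. It was at least 97.0-fold below melan-a in 4C and 27.5-fold below it in 4C11+. Coro2a, an actin-binding coronin, was at 6.85 and 5.94 in melan-a, 1.03, 0.26 and -0.70 in 4C, 1.65, -1.01 and 0.96 in 4C11-, and 2.37, 1.44 and 2.97 in 4C11+. Its 4C11+ libraries were above all 4C libraries but overlapped 4C11-. Smtnl2, a smoothelin-like protein with a calponin homology domain, was at 3.80 and 3.76 in melan-a, 0.70, 0.93 and -0.25 in 4C, 1.35, 0.96 and -0.70 in 4C11-, and 0.15, -0.24 and 0.06 in 4C11+. The 3 derived lines overlapped for Smtnl2, and its mean was 9.97-fold lower than melan-a in 4C, 9.45-fold in 4C11- and 13.8-fold in 4C11+.

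Rtn4rl2, a membrane-anchored relative of the Nogo receptor, was the only gene whose highest derived line mean was that of 4C. Its values were 3.69 and 3.38 log2 CPM in melan-a, 0.20, -0.42 and 0.80 in 4C, -1.01, -3.15 and -3.44 in 4C11-, and -2.44, -2.44 and -0.70 in 4C11+. The 4C libraries held 6 to 10 reads and lay above the other 6 derived libraries, all at 2 reads or fewer. Rtn4rl2 was 10.1-fold below melan-a in 4C, at least 34.5-fold in 4C11- and at least 11.4-fold in 4C11+. Cacnb4, an auxiliary beta subunit of voltage-gated calcium channels, was at 4.84 and 5.61 in melan-a, -1.01, 1.21 and 1.58 in 4C, 1.46, 2.14 and 2.75 in 4C11-, and 1.48, 1.44 and 0.88 in 4C11+. Tbc1d9 was at 5.18 and 4.92 in melan-a, -3.44, -2.44 and -3.44 in 4C, -3.15, -3.15 and -3.44 in 4C11-, and 1.48, 2.01 and 1.04 in 4C11+. At most 1 read of Tbc1d9 was present in any 4C or 4C11- library, against 9 to 15 in 4C11+. Prob1 was at 4.38 and 3.97 in melan-a, -0.70, 1.39 and 1.77 in 4C, 1.73, 1.51 and 1.35 in 4C11-, and 0.84, 0.67 and 0.88 in 4C11+, with little spread within the melanoma lines.

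Just inside the threshold were Prob1, Cacnb4 and Snai2, with gaps of 2.20, 2.09 and 2.00 log2 units. Just outside it were the receptor tyrosine kinase gene Kit (1.96), Hid1 (1.90) and the mineralocorticoid receptor gene Nr3c2 (1.90). Kit, whose ligand sustains melanocytes, was at 6.92 and 6.18 log2 CPM in melan-a and missed the rule by 1 library, 4C11+ replicate 3 at 4.22, with the other 4C11+ libraries at 2.69 and 2.17.

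The derived lines were compared with each other by limma over all 14272 genes, but the authors' filter limits what these comparisons can show. A gene needed 1 CPM in 4 libraries to be listed, and the melan-a libraries used here supply 2. The deposited values only approximate this filter, since 136 listed genes had fewer than 4 of the 11 libraries above 0 log2 CPM. Judged by the deposited values above 0 log2 CPM, 6 of the 12 genes (Eya1, Tbc1d9, Itga8, Col9a1, Sorbs2 and Snai2) would not reach 4 libraries without those of 4C11+, and Rtn4rl2 would not without those of 4C. A level in 4C11+ may therefore have been a condition for listing those 6, called listed through 4C11+ below. Their differences between 4C11+ and the other lines are given as a description, without a test, and likewise those of Rtn4rl2 against 4C. The other 5, Coro2a, Smtnl2, Adamts9, Prob1 and Cacnb4, would by the same values be listed without any single derived line. Adamts9 would not reach 4 libraries if 4C11- and 4C11+ were both left out.

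Across the 12 genes the counts may follow from that filter in part, and nothing is read from them. In 4C11+ against 4C, 8 of the 12 passed an adjusted p of 0.05, all higher in 4C11+, where 31.7% of all genes passed in either direction and 17.1% higher. Of these 8, 6 were the genes listed through 4C11+. In 4C11+ against 4C11-, 4 of the 12 passed, all higher in 4C11+ and all listed through it, where 31.1% of all genes passed in either direction and 15.6% higher. In 4C11- against 4C, neither line alone was needed to list any gene but Rtn4rl2. Only Adamts9 passed there, higher in 4C11-, where 1.67% of all genes passed in either direction and 1.26% higher. Without regard to the test, the libraries of the lines did not overlap for 9 of the 12 in 4C11+ against 4C, where 51.3% of all genes did not, for 5 in 4C11+ against 4C11- (47.0%) and for 5 in 4C11- against 4C (19.3%). Each derived line enters 2 of these comparisons, so they are not independent. In derived lines against melan-a, the contrast the rule used, the fit called 12 of 12 lower, against 12.3% of all genes in either direction and 5.7% lower, and the libraries did not overlap for 12 of 12, against 10.3% of all genes, from which nothing is read either.

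Among the 6 genes listed through 4C11+, Eya1, Itga8, Col9a1 and Tbc1d9 had 4C11+ levels above all libraries of both other derived lines. With the low lines set at 3 reads, the mean of Eya1 in 4C11+ was at least 20.6-fold that of 4C and 25.6-fold that of 4C11-. Tbc1d9 was at least 6.80-fold and 8.44-fold higher in the same order. Itga8 was at least 19.3-fold and Col9a1 at least 21.2-fold higher in 4C11+ than in 4C, and their fitted differences from 4C11- were 4.48 (SE 0.75) and 3.84 (SE 0.78) log2 units. These 4 genes nevertheless stayed 7.96-fold to 12.1-fold below the melan-a mean in 4C11+. Sorbs2 and Snai2 held 3 to 8 reads per 4C11+ library against 0 in 4C. With 4C set at 3 reads they were 3.53-fold and 3.15-fold higher in 4C11+ on the deposited scale. These folds are not lower bounds, since 3 reads take -0.24 to 0.15 log2 CPM in the 4C11+ libraries and -1.61 to -1.01 in 4C. With low values raised to a common floor the differences were 0.41 and 0.24 log2 units.

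Adamts9 did not need any single derived line to be listed, but by the deposited values it needed 4C11- or 4C11+. Apart from those lines it was above 0 log2 CPM in 2 melan-a libraries and 1 of 4C. Its differences from 4C are therefore not free of the filter. It was 3.84 log2 units higher in 4C11- than in 4C (SE 0.42, adjusted p = 0.00070, limma) and 3.95 higher in 4C11+ than in 4C (SE 0.42, adjusted p = 2.9e-05). Between 4C11+ and 4C11- its difference was 0.11, with a 95% interval of -0.82 to 1.03. Coro2a was called by a narrow margin, 2.06 log2 units higher in 4C11+ than in 4C (SE 0.71, adjusted p = 0.044, limma), and the call was lost without 4C replicate 2 or 3 and without 4C11+ replicate 1 or 3 (adjusted p = 0.099, 0.16, 0.12 and 0.13). In 4C11+ against 4C11- it was not called, except without 4C11- replicate 1 (adjusted p = 0.030).

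For Smtnl2, Prob1 and Cacnb4 none of the 3 comparisons was called (limma). Their 95% intervals in 4C11+ against 4C were -1.71 to 0.78, -1.27 to 1.22 and -0.71 to 2.06 log2 units, so a 2-fold difference lay within each interval in at least 1 direction. In 4C11- against 4C, the fitted differences of Sorbs2 and Snai2 were 2.57 (SE 0.68, adjusted p = 0.093) and 2.91 (SE 0.72, adjusted p = 0.072) log2 units (limma). Both passed the threshold without 4C11- replicate 2 (adjusted p = 0.014 and 0.036, limma). No 4C library held a read of either gene, so these sizes rest on the floor. With 4C set at 3 reads the differences were 0.39 and 0.73 log2 units, and with low values raised to a common floor that of Sorbs2 was 0.02. Rtn4rl2, listed through 4C, had fitted differences of -2.73 log2 units (SE 0.76) in 4C11- against 4C and -2.06 (SE 0.76) in 4C11+ against 4C. Neither melanoma line had a library above 3 reads. With those lines set at 3 reads, Rtn4rl2 was at least 3.40-fold lower in 4C11- and at least 1.13-fold lower in 4C11+ than in 4C.

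**Figure D3:**
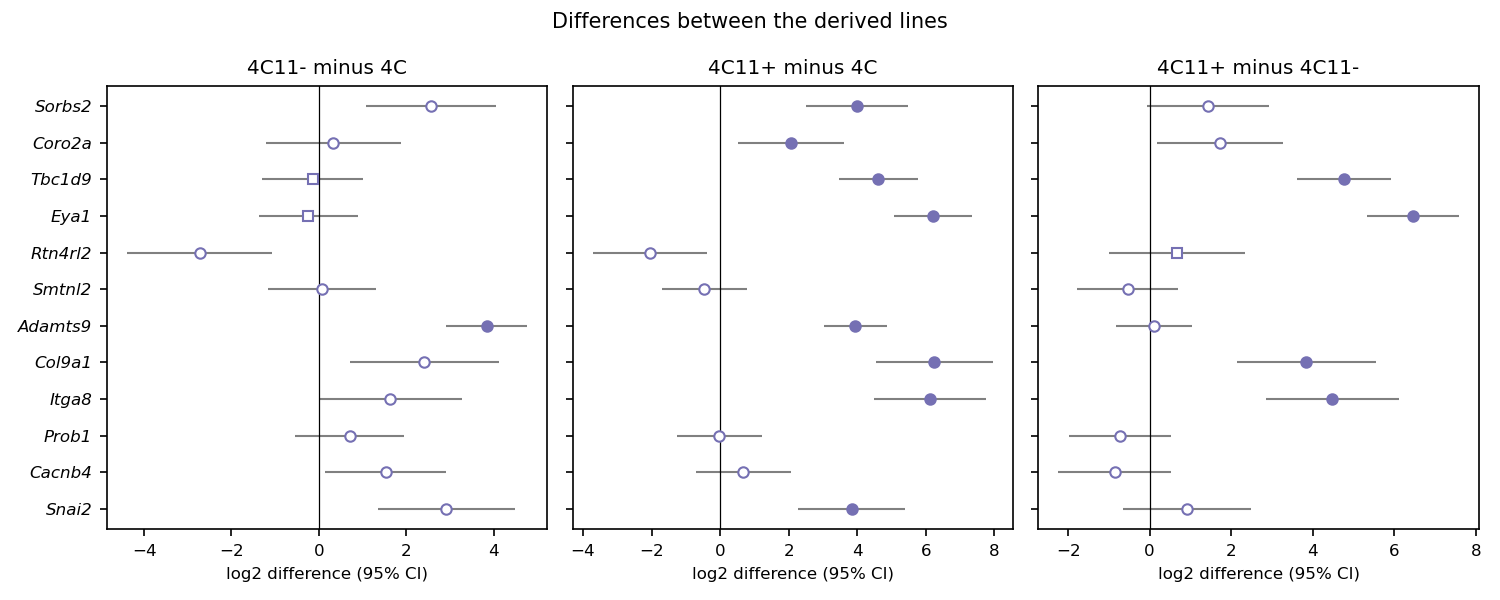
Points are fitted log2 differences between derived lines for the 12 genes, from limma over 11 libraries, with 95% confidence intervals; filled points have an adjusted p under 0.05 and squares mark pairs with no library above 3 reads in either line. The filled points number 1, 8 and 4 from left to right and all lie above 0. In the middle and right panels 6 and 4 of them are genes that, judged by the deposited values, were listed through their 4C11+ libraries.

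The rule was narrow because it had to hold in all 3 derived lines. Taken 1 line at a time, with every library of the line at least 2 log2 units below melan-a, it was met by 336 genes in 4C, 261 in 4C11- and 245 in 4C11+, counts that share the same melan-a libraries. Without 4C11+ it was met by 203 genes and without 4C11- by 24. The mirror rule, with every derived library at least 2 log2 units above both melan-a libraries, was met by 73 genes, 54 of which had no melan-a library above 3 reads.

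Close relatives and partners of the 12 genes moved in both directions. Of 49 such genes, tested as derived lines against melan-a, 5 were called higher, 6 lower and 38 in neither direction. The called share was 22.4%, against 12.3% of all genes, and the share called lower was 12.2%, against 5.7% of all genes. Snai1, the paralog of Snai2, was called higher, with no melan-a library above 3 reads and means of 4.58 log2 CPM in 4C, 5.42 in 4C11- and -1.91 in 4C11+. Col9a3, whose product joins that of Col9a1 in collagen IX, was lower by 4.73 log2 units (SE 0.79, adjusted p = 0.0020, limma) with no overlap between melan-a and derived libraries, whereas Col9a2 at 1.12 log2 CPM in melan-a was not called (adjusted p = 0.69). Among integrin chains, Itga6 fell by 2.01 (adjusted p = 0.00011) and Itga2 by 2.21 (adjusted p = 0.035), Itga9 rose by 5.82 (adjusted p = 3.6e-07), and Itgb1, the partner of Itga8, had means of 9.06 to 9.48 log2 CPM in all 4 lines. Adamts20, a protease of the same family as Adamts9, was at -2.30 in 4C against 4.66 in melan-a, 3.55 in 4C11- and 3.97 in 4C11+. Of the other Eya genes, Eya3 averaged 6.16 log2 CPM in melan-a and Eya4 -1.07, and neither was called (adjusted p = 0.37 and 0.16, limma).

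Of the 12 lists of related pathways, 2 hold 1 of the genes each, Snai2 among lineage factors and Col9a1 among collagens, and the counts that follow leave these 2 out. All lists were tested as the mean of the derived lines against melan-a, in which 6.59% of all genes were called higher and 5.7% lower. Of 31 genes of melanin synthesis and the melanosome, 12 fell and 2 rose, with a median difference of -0.65 log2 units against -0.06 over all genes. Of 21 lineage factors and receptors, 9 fell and 2 rose, with a median of -0.98. The melanocyte master regulator Mitf averaged 7.85 log2 CPM in melan-a and 7.12 in 4C11+, against 0.20 in 4C and -0.09 in 4C11-. The pigment enzyme gene Tyrp1 averaged 10.6 in melan-a and 11.6 in 4C11+, against -0.33 in 4C and -1.87 in 4C11-. In all 12 pigment genes that fell, derived and melan-a libraries overlapped and 4C11+ had the highest mean of the derived lines, so none could meet the rule. Of 21 neural crest and glial genes, 8 fell and 5 rose (median -0.28), and the neural adhesion gene L1cam averaged 6.06 in melan-a and 3.63 in 4C11+, with at most -1.15 in the other lines.

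Among the lists nearest to the PMA difference, those of protein kinase C, AP-1 and ERK feedback genes held calls in both directions. Of 27 genes of protein kinase C isoforms, other diacylglycerol receptors and protein kinase C substrates, 5 fell and 2 rose (median -0.31). The protein kinase C gene Prkcz fell by 2.98 log2 units (SE 0.82, adjusted p = 0.035, limma) without overlap of the libraries; its product is an atypical isoform, which phorbol esters do not bind. Prkcq, a phorbol ester-responsive isoform, was also among the 5 called lower, with means of 5.72 and 7.59 log2 CPM in melan-a and 4C11+ against -3.44 and -2.96 in 4C and 4C11-. Of 38 AP-1, immediate early and phorbol ester-inducible genes, 8 rose, 4 of them with no melan-a library above 3 reads, and 4 fell (median -0.42). Plaur, the urokinase receptor gene, rose by 2.82 (SE 0.34, adjusted p = 0.00017), and the immediate early gene Nr4a3 fell by 3.83 (SE 0.63, adjusted p = 0.0018). Of 23 feedback genes of the ERK pathway, 2 fell and 1 rose (median -0.40), the falls being Spry2 by 1.93 (adjusted p = 0.0095) and Dusp4 by 1.53 (adjusted p = 0.049). Of 34 genes of cAMP signalling, 9 fell and 0 rose (median -0.55), among them the protein kinase inhibitor gene Pkib, at 3.83 log2 CPM in melan-a, 3.34 in 4C11+ and at most -1.06 in the other lines. The part of PMA in any of these and that of the line cannot be told apart.

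Of 46 collagens, laminins and basement membrane genes, 11 rose, 3 of them with no melan-a library above 3 reads, and 8 fell (median 0.26), with Col1a1 at 1.42 log2 CPM in melan-a and 1.76 in 4C11+, against 10.9 in 4C and 10.6 in 4C11-. Of 15 cadherins and protocadherins, 4 rose and 4 fell (median -0.86), all 4 of the former from at most 3 reads in melan-a. The N-cadherin gene Cdh2 averaged 7.84 log2 CPM in melan-a and 6.76 in 4C11+, against -3.44 in 4C and -3.34 in 4C11-, without overlap between melan-a and the rest. Of 50 genes of axon guidance and neural adhesion, 9 rose and 7 fell (median -0.02), and of 21 imprinted genes 3 rose and 3 fell (median -0.22), with the paternally expressed Peg3 called lower at means of 7.81 and 8.36 in melan-a and 4C11- against 5.77 in 4C and -2.01 in 4C11+. Of 47 interferon-stimulated and antigen presentation genes, 10 rose and 1 fell (median 0.58). The antigen peptide transporter gene Tap1 rose by 2.62 (SE 0.41, adjusted p = 0.0014), and the antiviral gene Mx1 fell by 4.86 (SE 0.89, adjusted p = 0.0036) without overlap.

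Genes near the 12 in the genome were compared in the same way. Within 500 kb of their start sites, 92 other measured genes were called lower in 4 cases, higher in 5 and in neither direction in 83, a called share of 9.78% against 12.3% of all genes. All 5 higher ones had no melan-a library above 3 reads. Eya1 had no other measured gene in this window. Prob1 (ENSMUSG00000073600) spans chr18:35650351-35655238 on the minus strand. Near it, 2 of 13 neighbours were lower, Spata24 by 1.46 log2 units (SE 0.33, adjusted p = 0.013, limma), whose start lies 6.95 kb away, and Paip2 by 0.72 (SE 0.20, adjusted p = 0.040), and Ecscr averaged 4.74 log2 CPM in 4C11+ with no melan-a library above 3 reads. The remaining falls were Galnt12 near Coro2a, by 1.40 (adjusted p = 0.014), and Tecr near Tbc1d9, by 0.77 (adjusted p = 0.028).

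**Figure D4:**
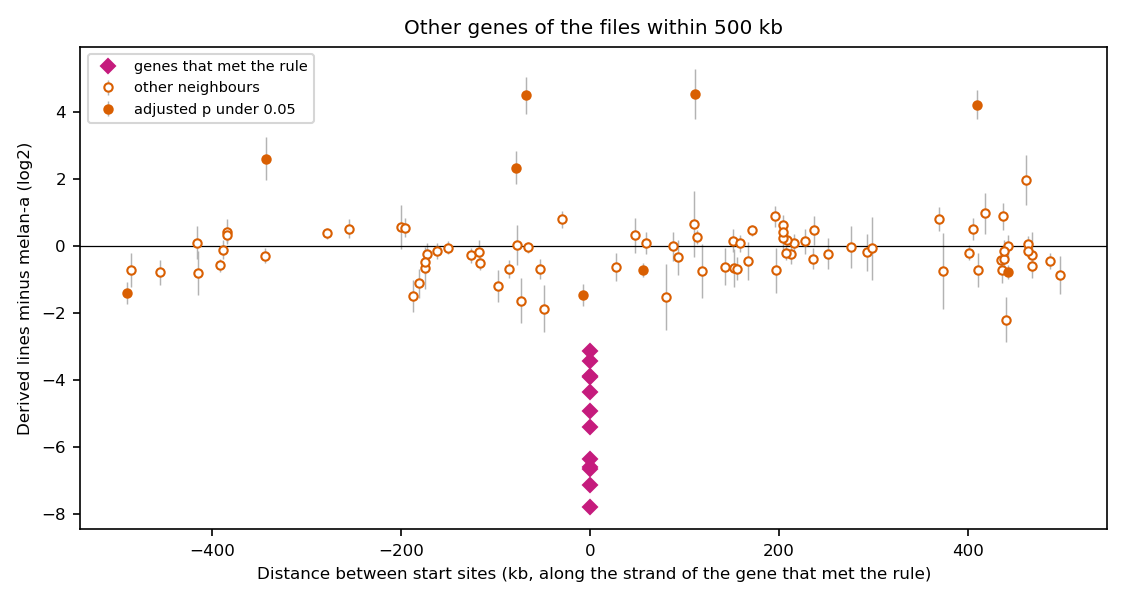
Circles are measured genes within 500 kb of the genes that met the rule, by the distance between start sites (x axis, kb, along the strand of the rule gene) and the fitted log2 difference of derived lines minus melan-a with its SE (y axis); filled circles have an adjusted p under 0.05 and diamonds are the 12 genes. The diamonds lie between -7.80 and -3.13, below every neighbour.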

How the data were processed

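Total RNA was sequenced from 2 melan-a libraries and 3 libraries each of 4C, 4C11- and 4C11+. The authors trimmed reads with Trimmomatic, aligned them to GRCm38 with STAR, counted them per gene, required 1 CPM or more in 4 or more libraries and transformed the counts with voom of limma; the annotation was Ensembl 90, and tool versions were not given in the sources used here. The deposited values are log2 CPM. All 11 libraries share 1 set of values, as after quantile normalization, a step not stated. Values were used as deposited. The reads behind a low value were taken from its rank among the distinct values of its library. A rough depth, which the shared values may distort, was taken from the step at 40 reads. The precision at low values is set by the few reads behind them.

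Tests used limma 3.58.1 under R 4.3.3 (line means over 11 libraries, mean-variance trend, Benjamini-Hochberg adjustment over 14272 genes, adjusted p under 0.05). On simulated data with 200 changed genes among 14272, 4C11+ minus 4C recovered 0% at a log2 difference of 1, 54.5% at 2 and 90.0% at 4. Unchanged genes called numbered 0, 3 and 15 in the same order. The simulated lines otherwise shared 1 mean per gene with normal noise, while 4528 genes were called in the data. Recovery in the data may therefore differ from these rates. Promoter and marker counts, ranges and figures were made in Python 3.11.15 with NumPy 2.4.6, pandas 2.3.3 and matplotlib 3.10.9.

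The members, gene lists and tests were chosen with earlier results of these data known, and the relatives and neighbours once the members were. Genes were named if they met the rule, lay among the 3 just outside its threshold, or were, in a list (melanin, lineage factors, neural crest, protein kinase C, AP-1, ERK feedback, cAMP, cadherins, axon guidance, collagens, imprinted, interferon), among the 5 called non-members with the largest difference or list-defining genes; Plaur, Tap1, the relatives and the neighbours were chosen after their values were seen. Alternatives covered the gap, line means, a further quantile normalization, a filter on low values, the variance trend, the replicate number as a block, and each library or derived line left out. Another alternative, raising low values to a common floor, was chosen after seeing the data. One gene is not reported here.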

Additional observations from a re-analysis of the deposited data

How the results depend on the processing

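The number of genes that met the rule depended on the gap and on the libraries it had to hold in. It was 55 at a gap of 1 log2 unit, 1 (Sorbs2) at a gap of 3, 61 with line means in place of single libraries, 24 without the line 4C11- and 203 without the line 4C11+. Leaving out single libraries gave 12 to 54, since fewer libraries can only add genes, and all 12 genes stayed in each of these. Without melan-a replicate 2 it was 28, without melan-a replicate 3 it was 54 and without 4C11+ replicate 3 it was 20.

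Leaving out rows with a mean under 1 log2 CPM removed most of the 12 genes from the test by its own construction, and left 2 called in 4C11+ against 4C, 0 in 4C11+ against 4C11- and 125 genes in all in 4C11- against 4C, from 8, 4 and 238 (limma). Leave-one-out counts of the 12 genes called ran from 7 to 9, 4 to 6 and, in 4C11- against 4C, 1 to 3. The authors' filter limits these as it does the main counts, and nothing is read from them. Over all genes the leave-one-out counts ran from 3117 to 5317 in 4C11+ against 4C, 2986 to 4813 in 4C11+ against 4C11-, 93 to 320 in 4C11- against 4C and 1362 to 2236 in derived lines against melan-a. No called result changed sign, while uncalled differences of Coro2a, Tbc1d9, Eya1, Smtnl2, Prob1, Cacnb4 and Snai2 did in some of these alternatives. Among single genes (limma), Coro2a in 4C11+ against 4C also lost its call without the variance trend (adjusted p = 0.054) and with only the 9 derived libraries (0.051). With low values raised to a common floor, the differences of Sorbs2 and Snai2 in 4C11+ against 4C were 0.41 and 0.24 log2 units, given as a description.

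With the replicate number as a block, 254, 4898 and 4715 genes were called in 4C11- against 4C, 4C11+ against 4C and 4C11+ against 4C11-, and 1652 in derived lines against melan-a. Of the 12 genes, 1, 8 and 4 were called in the first 3 of these, as before. Most of those 8 and all of those 4 are genes listed through 4C11+, so nothing is read from these counts. Same-numbered libraries of different lines deviated together with r across genes of -0.23 to 0.39 in 15 pairs (median 0.15). Differently numbered ones had -0.42 to 0.34 in 30 pairs (median -0.095). The median was higher for the same number but the ranges overlapped, and the numbers were not taken as pairs in the main fit. The approximate depth limits any statement on genes at a few reads.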

Other observations

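A further 43 genes had a gap of 1 to under 2 log2 units between the lower melan-a library and the highest derived library, short of the rule. Their highest derived library was one of 4C11+ in 21, of 4C11- in 17 and of 4C in 5. Several encode adhesion proteins of neural and neural crest cells. Alcam, an immunoglobulin-type adhesion molecule, was at 7.20 log2 CPM in the lower melan-a library and at most 5.35 in a derived library. L1cam was at 5.70 and 6.42 against at most 4.07, the leucine-rich repeat protein gene Flrt3 at 4.60 and 4.70 against 2.89, and Itgb8, an integrin beta chain, at 4.53 and 4.76 against 2.75. Ppargc1a, a coactivator of mitochondrial genes, was at 5.82 and 5.92 against at most 4.15. These genes were chosen after their values were seen and were not tested as a group.

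Melan-a replicate 3 was closer across genes to the 4C11+ libraries, with Pearson r of 0.855 to 0.883, than melan-a replicate 2 was, with 0.818 to 0.830. The melan-a libraries correlated with each other at 0.907.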
